A study of Mus musculus with 4 samples.

Results

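Synaptic vesicle and neurexin-neurexophilin genes are the genes whose products fill the presynaptic terminal with vesicles, fuse those vesicles with the membrane and join the terminal to its target cell. They were chosen by symbol alone: the synaptotagmins, synapsins, SV2 proteins, RAB3 GTPases, RIM proteins, complexins, MUNC13 proteins, neurexins, neuroligins, neurexophilins, the vesicle-associated VAMPs, syntaxin-1, Snap25, synaptophysin, bassoon and piccolo. This gave 57 of the 25239 gene symbols in the tables. Of these, 52 reached 1 TPM in at least 1 library and were compared with 15049 genes in all that did so; TPM is a transcript level scaled for gene length and library total.

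The RNA came from cochleovestibular ganglia (CVG) of mouse embryos at embryonic day 11.5, the inner ear ganglia in which auditory and vestibular neurons are born. There were 4 libraries, 1 for each genotype label: DKO, Isl1CKO, Pou4f1KO and control. The labels were read as loss of both genes, conditional loss of Isl1, loss of Pou4f1 and neither; the Cre driver of the conditional allele, the control genotype and the number of embryos behind a library are not given in the sources used here. Isl1 encodes a LIM-homeodomain factor and Pou4f1 a POU-homeodomain factor of early sensory neurons. The design asks what each factor contributes to the differentiation of these neurons. With 1 library per genotype no difference has a replicate check, no p-value was computed, and "higher" and "lower" describe these libraries only.

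The targeted genes were read first. Pou4f1 had 14.6 TPM in DKO and 16.6 in Pou4f1KO, against 188 in Isl1CKO and 146 in control, which goes with the labels. Isl1 had 579 TPM in DKO and 854 in Isl1CKO, against 340 in Pou4f1KO and 450 in control, which goes against the labels DKO and Isl1CKO. A conditional allele can leave most of the transcript in place, so a value for the whole gene does not test its deletion. Every direction tied to Isl1 below rests on the label, and the names are those of the library labelled DKO and the library labelled Isl1CKO throughout. All 10 markers of ganglion neurons, a list that holds Isl1 and Pou4f1 themselves, were above 1 TPM in each library. They summed to 4916, 5569 and 4930 TPM in DKO, Isl1CKO and Pou4f1KO, against 4676 TPM in control, most of it from Tubb3. Their median log2 ratio was −0.78 in DKO, −0.11 in Isl1CKO and −0.14 in Pou4f1KO against control, and −0.48 in DKO against Isl1CKO; Ntrk2, a neurotrophin receptor, was at 27.5, 55.2 and 57.2 TPM in those libraries, against 72.6 TPM in control. The summed level of 25 neural tube and hindbrain markers was 85.4 TPM in DKO, 77.7 in Isl1CKO and 172 in Pou4f1KO, against 38.6 in control, with 7, 5 and 22 of them at 1 TPM or more in those mutant libraries, against 5 in control. The summed level of 17 otic epithelium markers was 342, 487 and 388 TPM in DKO, Isl1CKO and Pou4f1KO, against 674 in control. Mean read depth at 1 TPM was 4.95 to 5.93.

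Transmitter release depends on a complex of SNARE proteins, VAMP on the vesicle and syntaxin-1 and SNAP25 on the plasma membrane, whose zippering drives fusion. Synaptotagmins couple this step to calcium, complexins hold it in check, and MUNC13 and RIM proteins prepare vesicles at the active zone. Across the synaptic cleft, presynaptic neurexins bind neuroligins, and the secreted neurexophilins bind alpha-neurexins from the outside. At the stage sampled here the neurons are young and still growing their axons.

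The release machinery was abundant in the control ganglion. Snap25 was the most abundant member, at 458, 414 and 543 TPM in DKO, Isl1CKO and Pou4f1KO, against 403 TPM in control. Synaptophysin (Syp), an integral vesicle protein, followed at 328, 271 and 354 TPM in those libraries, against 273 TPM in control. Both were highest in Pou4f1KO, and their highest and lowest libraries differed 1.35-fold and 1.31-fold in TPM. Vamp2, the main neuronal vesicle SNARE, was at 136, 146 and 157 TPM in the mutant libraries, against 140 TPM in control. Of the members that reached 5 TPM in some library, 31 of 42 (73.8%) had a highest library less than 1.5-fold above the lowest in TPM, a smaller share than the 85.6% of all 12099 genes at that level. The rank of Snap25 rests on its TPM: its listed coverage, the mean read depth over the gene, was 117, 89.7 and 137 in the mutant libraries, against 105 in control, which was 0.0438 of that of most genes at the same TPM. Syp had a coverage of 1910, 1339 and 2044, against 1618 in control.

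**Figure D1:**
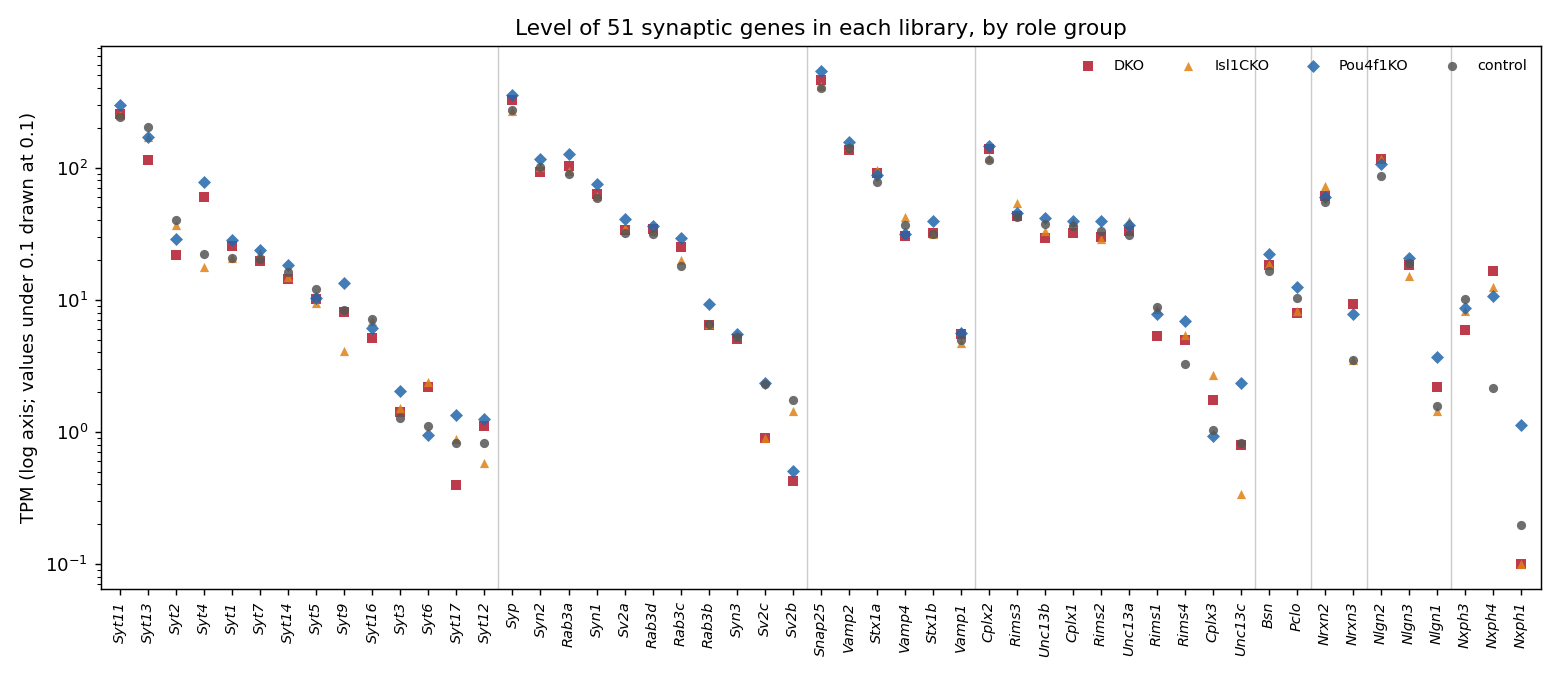
TPM of 51 compared members on a log axis, with 1 point per library (DKO, Isl1CKO, Pou4f1KO, control); grey lines part the role groups, which run from synaptotagmins and vesicle proteins through SNARE proteins, priming factors and active zone scaffolds to neurexins, neuroligins and neurexophilins. Points overlap for most abundant members such as Snap25 and Vamp2, while those of Nxph4, Syt4, Nrxn3, Sv2c and Sv2b spread apart.

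Few members passed 2-fold, taken as a log2 ratio of (TPM + 1) of at least 1, a scale that understates differences of low genes. In DKO against control 3 of 52 members were at least 2-fold higher (Nxph4, Syt4 and Nrxn3) and 0 lower, where 1.01% of all genes were higher and 2.34% lower. In Isl1CKO against control 1 member was higher (Nxph4) and 0 lower, where 0.585% of all genes were higher and 0.618% lower. In Pou4f1KO against control 2 members were higher (Syt4 and Nxph4) and 0 lower, where 0.977% of all genes were higher and 1.73% lower. DKO against Isl1CKO gave 2 higher members (Syt4 and Nrxn3) and 0 lower, where 0.87% of all genes were higher and 1.23% lower. DKO against Pou4f1KO gave 0 members past 2-fold in either direction, where 0.645% of all genes were higher and 1.12% lower. With 0 to 3 members called in a comparison, the counts at this pseudocount amount to the 3 genes named. They depend on it: adding 0.1 in place of 1 gave 7 higher members in Pou4f1KO against control (2.15% of all genes), 4 lower in Isl1CKO against control (1.91% of all genes) and 4 lower in DKO against Pou4f1KO (2.45% of all genes).

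**Figure D2:**
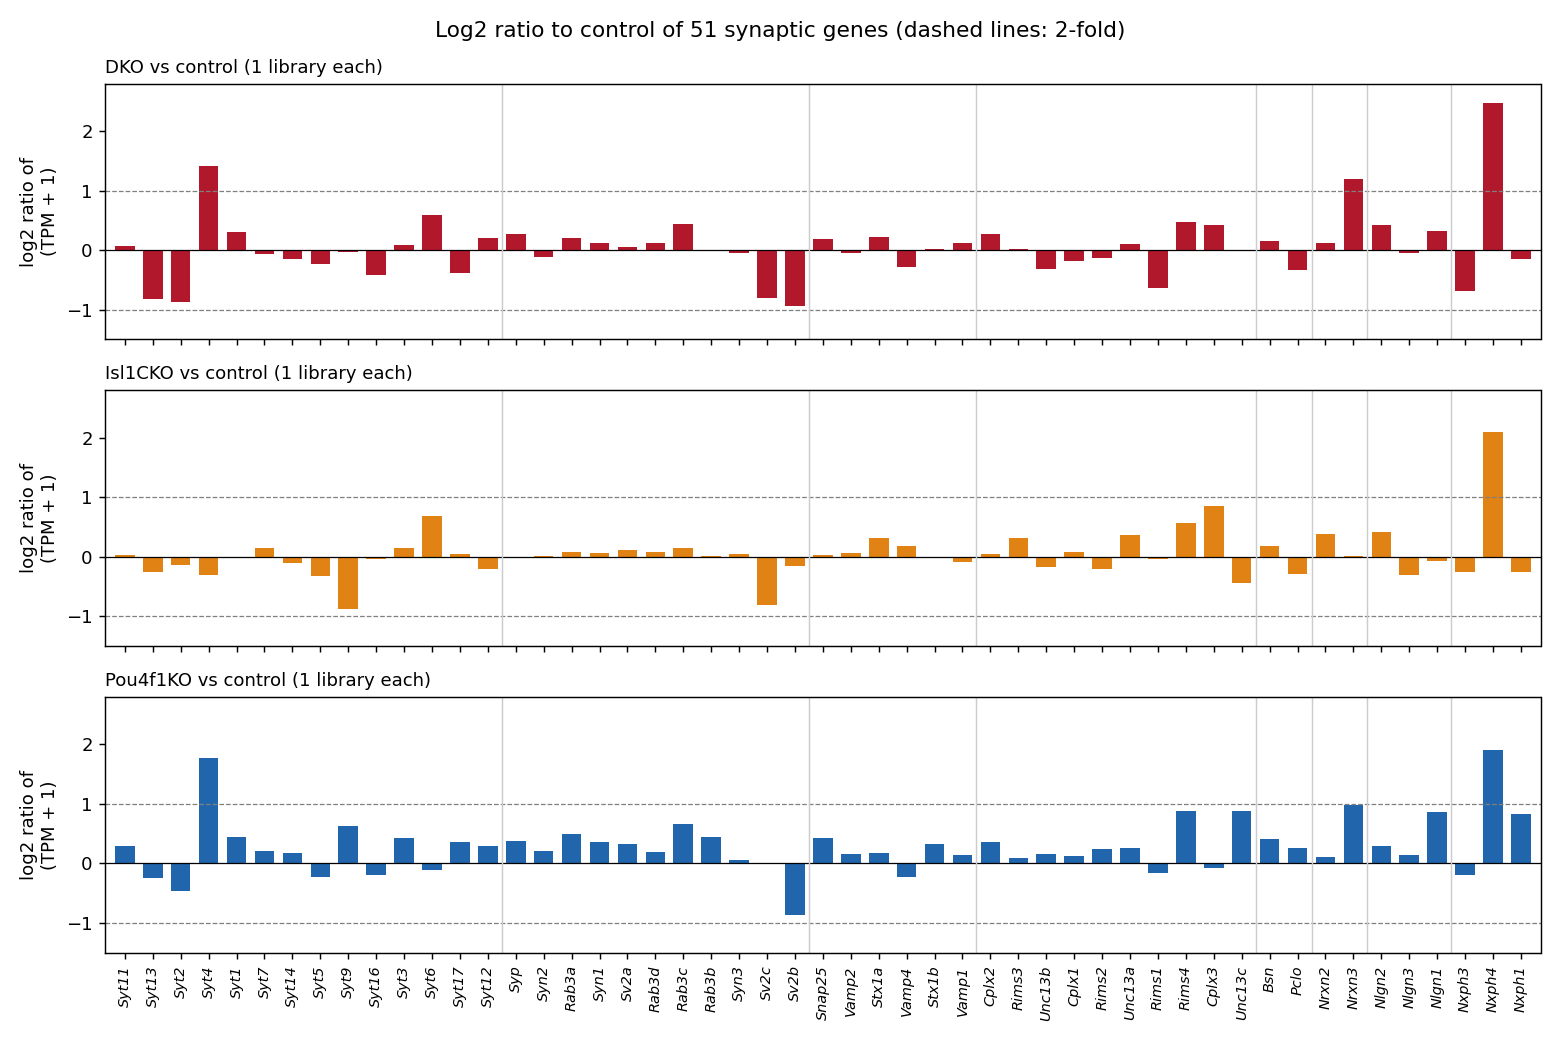
Log2 ratio of (TPM + 1) to control for 51 members, in DKO (top), Isl1CKO (middle) and Pou4f1KO (bottom); each bar is 1 gene from 1 pair of libraries, and dashed lines mark 2-fold. Nxph4 is past 2-fold in all 3 panels and Syt4 in the top and bottom panels, whereas most SNARE, vesicle and priming genes lie near 0 in the top and middle panels and slightly above it at the bottom.

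The neurexophilins held the member with the largest differences. Nxph4 (mm10 chromosome 10, 127525473 to 127534559, minus strand, 2 exons in GENCODE M21) encodes a secreted neurexophilin. It stood at 16.4 TPM in DKO, 12.4 TPM in Isl1CKO and 10.7 TPM in Pou4f1KO, against 2.13 TPM in control. All 3 mutant libraries were thus above control, with DKO the highest. Its log2 ratio to control was 2.48 in DKO, 2.10 in Isl1CKO and 1.90 in Pou4f1KO, which ranked it 7th, 6th and 28th from the top of the 15049 genes compared. In TPM these are 7.71-fold, 5.83-fold and 5.02-fold. All 3 ratios share the same control library, so they are not separate measurements. The gene was read to a mean depth of 95.7, 61.5 and 61.8 in the mutant libraries, against 12.6 in control. The neural tube and hindbrain list, whose median log2 ratio to control was 0.18 in DKO, −0.00 in Isl1CKO and 2.09 in Pou4f1KO, was also higher in Pou4f1KO; its part in the level of Nxph4 there was not tested.

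Its paralogs did not share this pattern. Nxph3 stood at 5.89, 8.29 and 8.69 TPM in DKO, Isl1CKO and Pou4f1KO, against 10.1 TPM in control, lowest in DKO with a log2 ratio of −0.69. Nxph4 made up 73.2%, 59.8% and 52.1% of the summed neurexophilin TPM in the mutant libraries, against 17.1% in control, where Nxph3 made up 81.1%. Nxph1 reached 1.13 TPM in Pou4f1KO alone, against 0.0749 TPM in DKO, a listed 0 in Isl1CKO and 0.199 TPM in control. Nxph2 stayed under 1 TPM in every library. In bulk tissue, fewer cells of a type and less RNA per cell cannot be told apart, so these shares do not say whether the same cells held both genes.

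Among the neurexins, the presynaptic receptors of this system, Nrxn3 stood apart. Nrxn3 (mm10 chromosome 12, 88794504 to 90334933, plus strand, 21 exons in its longest GENCODE M21 transcript) had 9.25 TPM in DKO and 7.79 TPM in Pou4f1KO, against 3.52 TPM in Isl1CKO and 3.47 TPM in control. The libraries that lack Pou4f1 by their labels were the higher ones. The log2 ratio to control was 1.20 in DKO, 0.02 in Isl1CKO and 0.98 in Pou4f1KO, the last just short of 2-fold. The listed mean read depth of Nrxn3 was 0.754 in DKO and 0.654 in Pou4f1KO, against 0.289 in Isl1CKO and 0.288 in control. These depths are low for its TPM, and how many reads lay behind each TPM value was not tested. Nrxn2, the most abundant neurexin, was at 60.5, 72.1 and 59.8 TPM in DKO, Isl1CKO and Pou4f1KO, against 55.3 TPM in control, with log2 ratios to control of 0.13, 0.38 and 0.11.

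Neurexin genes have several start sites, an upstream one for the long alpha forms and internal ones for shorter forms, and the tables hold 1 value for the whole gene. For Nrxn3 the listed coverage was 0.0140 to 0.0166 of that of most genes at the same TPM. It was 0.0632 to 0.0662 for Sv2b, 0.125 to 0.128 for Syn3 and 0.178 for Syt2 in each library. Why these genes have a low coverage for their TPM was not tested, and the tables hold no value per transcript. RefSeq promoter windows of build GRCm38.p6, from 250 bases before to 50 after a start, were found for 39 of the 57 members, as 54 windows. They were searched on both strands for TAATTA, a core of many homeodomain sites; for TTTGCAT, the POU octamer without its first letter; and for CAGCACC, the core of a half-site of RE1, the element bound by the neuronal repressor REST. TAATTA was in 1 of the 54 windows (1.85%, that of Syt6) against 5.29% of all 32851 windows. TTTGCAT was in 4 (7.41%) against 4.63%, and CAGCACC in 7 (13.0%) against 7.14%. These letters were chosen with the windows in view, and a match is not evidence of binding.

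The windows of Nrxn3 are shown because the gene value cannot say which start was used. They lie on the plus strand at chr12:88794254-88794553, chr12:88953140-88953439 and chr12:89812233-89812532. The names upstream, middle and downstream give only the order of these windows. In GENCODE M21 the gene starts at 88722876, before all of them, and which window serves the alpha forms was not tested. Capitals mark TTTGCAT, which the upstream and downstream windows hold.
Nrxn3 upstream start: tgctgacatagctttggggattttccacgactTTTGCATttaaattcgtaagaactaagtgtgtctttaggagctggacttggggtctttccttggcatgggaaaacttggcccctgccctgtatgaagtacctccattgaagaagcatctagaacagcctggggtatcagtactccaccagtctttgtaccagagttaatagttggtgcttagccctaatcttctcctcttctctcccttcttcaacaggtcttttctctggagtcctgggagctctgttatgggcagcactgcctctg
Nrxn3 middle start: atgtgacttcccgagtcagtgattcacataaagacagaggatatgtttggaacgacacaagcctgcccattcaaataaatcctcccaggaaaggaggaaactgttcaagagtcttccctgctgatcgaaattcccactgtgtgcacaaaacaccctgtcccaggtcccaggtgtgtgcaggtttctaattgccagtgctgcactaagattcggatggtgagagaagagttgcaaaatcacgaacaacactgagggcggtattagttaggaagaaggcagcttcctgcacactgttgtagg
Nrxn3 downstream start: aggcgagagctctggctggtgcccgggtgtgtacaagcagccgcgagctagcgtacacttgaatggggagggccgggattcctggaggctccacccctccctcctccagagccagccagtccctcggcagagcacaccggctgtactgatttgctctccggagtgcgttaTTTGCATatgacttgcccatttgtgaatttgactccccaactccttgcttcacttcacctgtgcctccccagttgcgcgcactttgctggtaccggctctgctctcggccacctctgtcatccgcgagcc

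The neuroligins, postsynaptic partners of neurexins, did not pass 2-fold in any comparison. Nlgn2, known from inhibitory synapses, was the most abundant, at 117, 116 and 107 TPM in DKO, Isl1CKO and Pou4f1KO, against 86.7 TPM in control. Every mutant library was above control, with log2 ratios of 0.43, 0.42 and 0.30. Nlgn3 was at 18.2, 15.0 and 20.8 TPM, against 18.9 TPM in control, and Nlgn1 at 2.19, 1.45 and 3.66 TPM, against 1.56 TPM in control. The log2 ratio to control for Nlgn1 in Pou4f1KO was 0.86.

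The synaptotagmins are C2-domain proteins of vesicles, of which Syt1, Syt2, Syt3, Syt5, Syt6, Syt7, Syt9 and Syt10 are known to bind calcium. Those 8 summed to 88.9, 97.4 and 108 TPM in DKO, Isl1CKO and Pou4f1KO, against 104 TPM in control. The other 9 summed to 451, 460 and 572 TPM, against 493 TPM in control, most of it from Syt11 and Syt13, so synaptotagmins outside the calcium-binding class made up the larger share at this stage. Syt11 was at 255, 248 and 296 TPM, against 242 TPM in control. Syt13 was at 115, 170 and 171 TPM in DKO, Isl1CKO and Pou4f1KO, against 203 TPM in control. It was below control in each mutant library and lowest in DKO, with a log2 ratio of −0.82. Syt13, Nxph3, Syt2 and Rims1 were lowest in the library where the median of the ganglion neuron markers was −0.78 to control; the part of those neurons in their levels was not tested.

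Syt4 was the synaptotagmin that stood apart. It is induced by activity in other neurons and sits on dense-core and neurotrophin-containing vesicles. Its level was 60.4 TPM in DKO against 17.8 TPM in Isl1CKO, and 77.5 TPM in Pou4f1KO against 22.1 TPM in control. The libraries labelled as lacking Pou4f1 were both above the others, 2.73-fold over control in DKO and 3.51-fold in Pou4f1KO on the TPM scale. The log2 ratio was 1.76 in Pou4f1KO against control and 1.71 in DKO against Isl1CKO, where the gene ranked 36th and 9th from the top of all genes compared. The median log2 ratio of the neural tube and hindbrain markers was 2.09 in Pou4f1KO against control and 0.12 in DKO against Isl1CKO; their part in the level of Syt4 was not tested.

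The calcium sensors of fast release, Syt1, Syt2 and Syt9, went different ways. Syt2 was at 21.7, 36.7 and 29.0 TPM in DKO, Isl1CKO and Pou4f1KO, against 40.5 TPM in control. It was lowest in DKO; the log2 ratio there was −0.87 to control and −0.73 to Isl1CKO. Syt1 was at 25.7, 20.6 and 28.5 TPM, against 20.7 TPM in control. Syt9 was at 8.08, 4.08 and 13.3 TPM in DKO, Isl1CKO and Pou4f1KO, against 8.30 TPM in control. It was thus low in Isl1CKO, high in Pou4f1KO and at the control level in DKO, with log2 ratios to control of −0.87, 0.62 and −0.03 in those libraries. Syt5 had log2 ratios to control of −0.23, −0.33 and −0.22 in DKO, Isl1CKO and Pou4f1KO, and Syt16 of −0.41, −0.04 and −0.19. For Syt3, Syt7, Syt12, Syt14 and Syt17 the log2 ratios to control lay between −0.39 and 0.43. Syt8, Syt10 and Syt15 stayed under 1 TPM in every library.

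**Figure D3:**
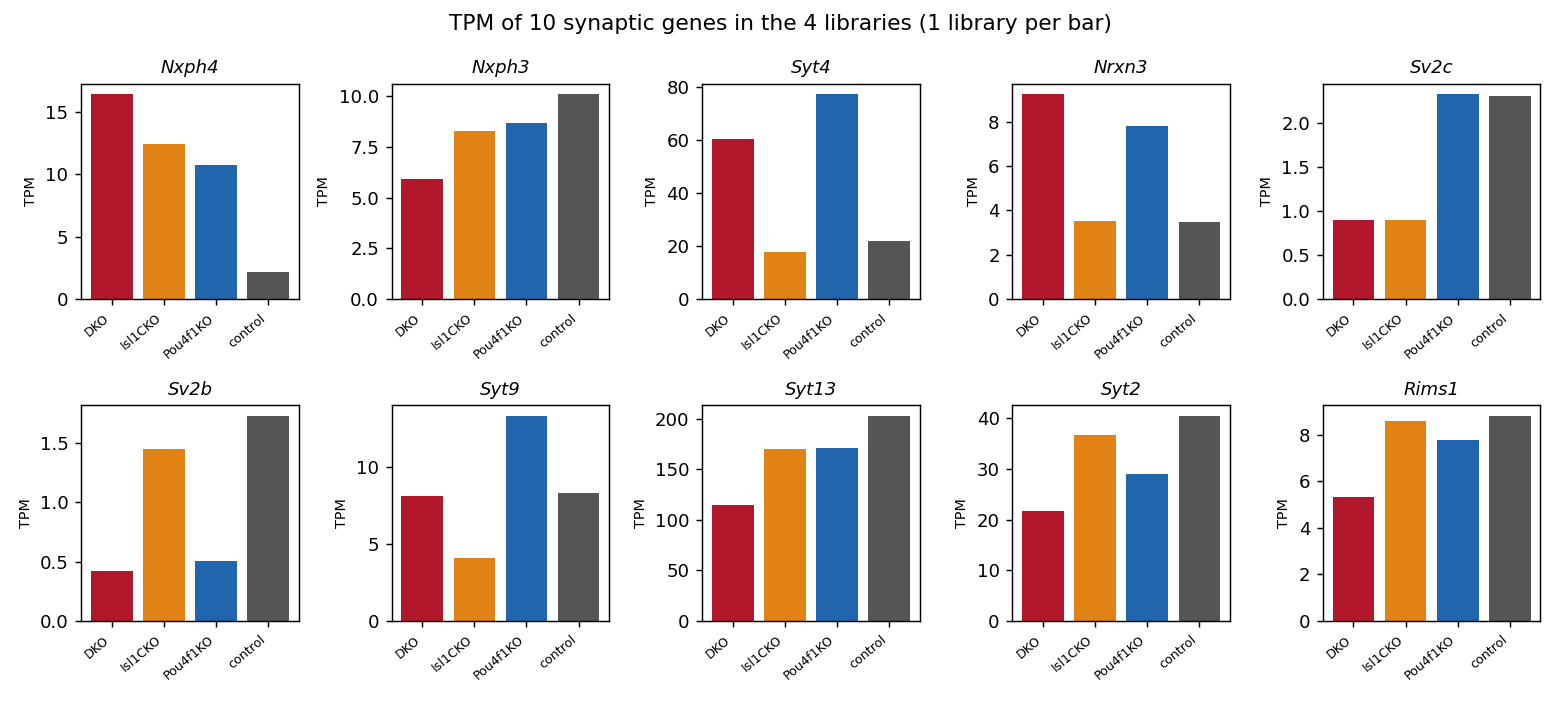
TPM of 10 members in DKO, Isl1CKO, Pou4f1KO and control (left to right in each panel); each bar is 1 library, so there is no error bar. Nxph4 is low in control alone, Syt4 and Nrxn3 are high in DKO and Pou4f1KO, Sv2c is low in DKO and Isl1CKO, Sv2b is low in DKO and Pou4f1KO, and Syt13, Syt2, Rims1 and Nxph3 are lowest in DKO.

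Vesicle-bound proteins differed little apart from the low-level SV2 paralogs. Syn2, a synapsin that tethers vesicles to the cytoskeleton, was at 92.8, 102 and 116 TPM in DKO, Isl1CKO and Pou4f1KO, against 101 TPM in control. Rab3a, the main vesicle GTPase, was at 102, 94.2 and 126 TPM, against 88.8 TPM in control, and Rab3c had log2 ratios to control of 0.43, 0.14 and 0.66. For Syn3, Rab3b and Rab3d these ratios lay between −0.05 and 0.44. Sv2a, the vesicle glycoprotein and drug target of levetiracetam, made up 96.2%, 93.7% and 93.5% of the summed SV2 TPM in the mutant libraries, against 88.8% in control.

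The minor SV2 genes split by label, though both lie below the 5 TPM used for naming and were picked after their values were seen. Sv2c (chromosome 13, 95959443 to 96132577) was at 0.902 TPM in DKO against 2.33 TPM in Pou4f1KO, and at 0.899 TPM in Isl1CKO against 2.31 TPM in control. Both libraries marked for Isl1 were low, at 0.387 and 0.389 of those levels. Sv2b (chromosome 7, 75114895 to 75309262) was at 0.422 TPM in DKO against 1.45 TPM in Isl1CKO, and at 0.501 TPM in Pou4f1KO against 1.73 TPM in control. Here both libraries marked for Pou4f1 were low, and the listed mean read depth of Sv2b was 0.162, 0.471 and 0.183 in DKO, Isl1CKO and Pou4f1KO, against 0.667 in control. On the log2 (TPM + 1) scale none of these differences reached 2-fold, the largest being −0.94 for Sv2b in DKO against control.

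The promoter window of Sv2c is set beside that of Syn1, whose ratios to control lay between 0.06 and 0.36, because both hold CAGCACC. Capitals mark it; the windows are chr13:96132528-96132827 and chrX:20920869-20921168, both on the minus strand.
Sv2c: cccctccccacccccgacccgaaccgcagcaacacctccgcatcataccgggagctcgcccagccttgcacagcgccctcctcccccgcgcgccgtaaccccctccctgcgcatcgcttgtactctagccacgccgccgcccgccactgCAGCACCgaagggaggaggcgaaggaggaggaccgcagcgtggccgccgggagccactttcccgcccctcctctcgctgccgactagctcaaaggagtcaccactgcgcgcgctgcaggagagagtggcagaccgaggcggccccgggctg
Syn1: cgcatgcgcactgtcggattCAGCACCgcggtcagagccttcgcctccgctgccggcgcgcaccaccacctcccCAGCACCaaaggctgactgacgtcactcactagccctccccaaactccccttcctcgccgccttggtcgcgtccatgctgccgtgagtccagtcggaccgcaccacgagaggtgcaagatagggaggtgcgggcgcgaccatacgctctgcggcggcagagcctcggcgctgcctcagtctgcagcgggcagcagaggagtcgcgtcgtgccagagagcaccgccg
The part of these letters in the level of either gene was not tested.

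SNARE genes had log2 ratios to control between −0.28 and 0.22 in DKO, between −0.08 and 0.31 in Isl1CKO and between −0.22 and 0.43 in Pou4f1KO. Stx1a, the plasma membrane syntaxin, was at 90.4, 96.4 and 87.8 TPM in DKO, Isl1CKO and Pou4f1KO, against 77.5 TPM in control. Vamp4, a SNARE of endosomal traffic, was at 30.2, 42.0 and 31.5 TPM, against 36.9 TPM in control, and its log2 ratio in DKO against Isl1CKO was −0.46.

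Of the priming and clamp genes, complexins and MUNC13 genes kept their main members near the control level. Cplx2 was at 139, 118 and 147 TPM in DKO, Isl1CKO and Pou4f1KO, against 115 TPM in control. Unc13a and Unc13b, which open syntaxin for SNARE assembly, were at 33.2 and 29.5 TPM in DKO, 39.7 and 32.9 TPM in Isl1CKO and 36.9 and 41.6 TPM in Pou4f1KO, against 30.7 and 37.2 TPM in control. Unc13a was thus the higher of the pair in DKO and Isl1CKO, and Unc13b in Pou4f1KO and control. Unc13c was at 0.802, 0.340 and 2.36 TPM, against 0.826 TPM in control, and Cplx4 stayed under 1 TPM in every library. Cplx1 and Rims2 had log2 ratios to control between −0.20 and 0.24.

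The RIM genes, whose long products RIM1 and RIM2 anchor calcium channels at release sites, were less even. Rims1 was at 5.31, 8.58 and 7.79 TPM in DKO, Isl1CKO and Pou4f1KO, against 8.83 TPM in control. It was lowest in DKO, with log2 ratios of −0.64 to control, −0.60 to Isl1CKO and −0.48 to Pou4f1KO. Rims4, which encodes a short RIM, was at 4.96, 5.36 and 6.89 TPM, against 3.27 TPM in control, above control in each mutant library by log2 ratios of 0.48, 0.58 and 0.89. Rims3, the most abundant RIM gene, had log2 ratios to control of 0.02, 0.32 and 0.08. The active zone scaffold genes had small ratios: Bsn was at 18.4, 18.6 and 22.2 TPM in the mutant libraries, against 16.4 TPM in control, and Pclo at 7.94, 8.23 and 12.5 TPM, against 10.3 TPM in control.

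As a list, most members were higher in Pou4f1KO than in control or DKO as deposited. Of 52 members 42 (80.8%) had a ratio above 0 in Pou4f1KO against control, where 53.8% of all genes did, and their median log2 ratio was 0.25 against 0.02 for all genes. Nxph1, Syt17 and Unc13c reached 1 TPM in Pou4f1KO alone, which favours higher values there; with a minimum of 5 TPM, 35 of 42 members (83.3%) were above 0, where 54.8% of all genes were. The neural tube and hindbrain markers were also higher in Pou4f1KO, with a median of 2.09 to control and of −1.76 in DKO against Pou4f1KO. Their part in the levels of the members was not tested. The 30 pan-neuronal genes, cytoskeletal and growth-cone genes such as Tubb3, moved with the members in Pou4f1KO against control, with a median of 0.24. Scaled to equal pan-neuronal genes, the members' median was 0.022 and 28 of 52 (53.8%) were above 0, where the median of all genes was −0.20 and 18.6% were above 0. In DKO against control 28 members (53.8%) lay above 0, where 48.4% of all genes did, with a median of 0.04. The same number lay above 0 in Isl1CKO against control, where 43.5% of all genes did; the median was 0.02, or −0.093 under pan-neuronal scaling, with all genes at −0.14. In DKO against Isl1CKO 25 members (48.1%) lay above 0, where 53.4% of all genes did. Pou4f1KO was the highest library for 35 members (67.3%), where it was so for 32.8% of all genes. In DKO against Pou4f1KO 7 of 52 members (13.5%) lay above 0, where 44.9% of all genes did, with a median of −0.24. Under pan-neuronal scaling this median was −0.054, with all genes at 0.16.

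The 4 libraries give the difference tied to each label in a pair of backgrounds that share no library. For Isl1 these are Isl1CKO against control and DKO against Pou4f1KO; 31 of 52 members (59.6%) had the same sign in both, where 56.3% of all genes did. Asking for a size of at least 0.5 in both, a limit chosen after the values were seen, left 5 members (9.62%), where it left 2.29% of all genes. A minimum of 5 TPM left 2 of 42 members (4.76%, against 1.93% of all genes), and FPKM left 2 of 43 (4.65%, against 1.40% of all genes), Nxph4 and Syt9 in both. FPKM is lower than TPM by a constant factor per library. With the same limits it therefore also acts as a higher filter and pseudocount, and is not a separate check. The 5 were Nxph4 (log2 ratios 2.10 and 0.58), Cplx3 (0.85 and 0.51) and Syt6 (0.69 and 0.70) on the higher side, and Sv2c (−0.80 and −0.81) and Syt9 (−0.87 and −0.66) on the lower. At 2-fold in both pairs 0 members were left, where 0.392% of all genes were. Cplx3 and Syt6, a complexin of retinal ribbon synapses and a calcium-binding synaptotagmin, stayed below 3 TPM in every library: Cplx3 was at 1.74, 2.67 and 0.928 TPM in DKO, Isl1CKO and Pou4f1KO, against 1.04 TPM in control.

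For Pou4f1 the pairs are Pou4f1KO against control and DKO against Isl1CKO, and 33 of 52 members (63.5%) had the same sign in both, where 60.2% of all genes did. A size of at least 0.5 in both left 4 members (7.69%), where it left 3.48% of all genes. They were Syt4 (1.76 and 1.71), Nrxn3 (0.98 and 1.18), Syt9 (0.62 and 0.84) and Sv2b (−0.86 and −0.78). At 2-fold in both pairs Syt4 remained (1.92% of members, 0.91% of all genes). Syt9 stands in both sets, lower with the Isl1 label and higher with the Pou4f1 label, but under pan-neuronal scaling it was in neither, and Syt2 stood in the Pou4f1 set.

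**Figure D4:**
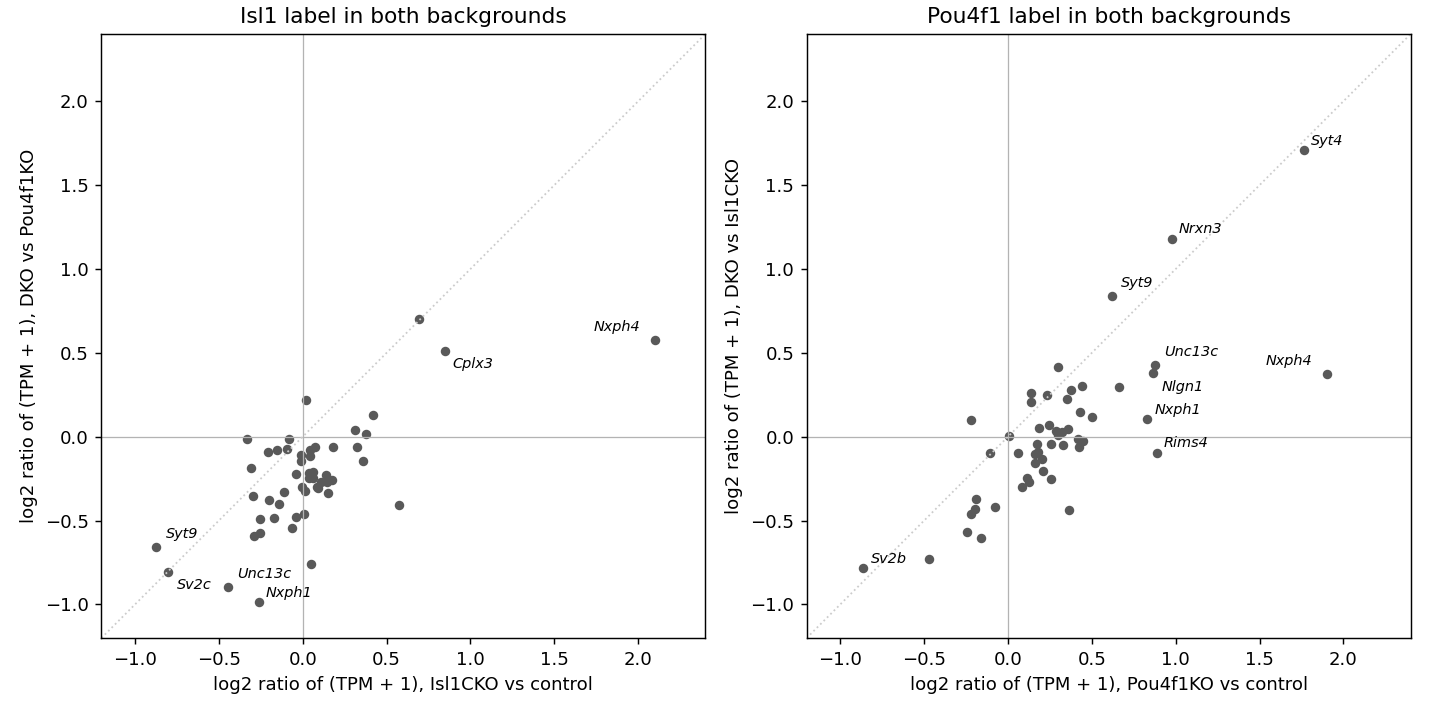
Log2 ratio of (TPM + 1) of the 52 members in each pair of backgrounds, which share no library: Isl1CKO vs control against DKO vs Pou4f1KO (left) and Pou4f1KO vs control against DKO vs Isl1CKO (right); each point is 1 gene and the dotted line marks equal ratios. Syt4 and Nrxn3 lie near the line at the upper right of the right panel, Sv2c near it at the lower left of the left panel, and Nxph4 lies far below it in both panels. By construction, a gene's vertical distance from the line is the same in both panels and equals its departure from additivity.

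Nxph4 was the 1 member whose departure from additivity reached 1 in size, as it did for 2.52% of all genes. The departure is the log2 ratio of DKO to control minus the sum of both single-mutant ratios. It was −1.53 for Nxph4, whose ratio in DKO (2.48) was well below the sum of 2.10 and 1.90. These ratios share the control library, where Nxph4 was at 2.13 TPM. A low value there raises each ratio and lowers the departure. Departures were below 0 for 43 of 52 members (82.7%), where they were so for 52.3% of all genes, with a median of −0.28 against −0.012 for all genes. Under pan-neuronal scaling the members' median was 0.033 against 0.29 for all genes, and 44.2% of members were below 0 against 12.8% of all genes. A departure subtracts the ratio in Pou4f1KO, so the departures as deposited are not separate from the higher levels of most members in that library.

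A list of 90 further synaptic genes, of which 84 were compared, also held few genes past 2-fold. In DKO against control 2 were at least 2-fold higher (2.38%, against 1.01% of all genes) and 2 lower (2.38%, against 2.34%). The higher gene with 5 TPM was Cbln2, a secreted cerebellin that binds neurexins, at 9.83, 3.95 and 10.8 TPM in DKO, Isl1CKO and Pou4f1KO, against 3.36 TPM in control. It was high in the same libraries as Nrxn3 and Syt4. The lower genes were Sncg, which encodes gamma-synuclein, at 404, 941 and 595 TPM, against 995 TPM in control, and Lin7a, a PDZ scaffold, at 6.70, 10.3 and 13.8 TPM, against 14.8 TPM in control. In Isl1CKO 0 of 84 passed 2-fold in either direction, where 0.585% of all genes were higher and 0.618% lower. In Pou4f1KO 3 were higher (3.57%, against 0.977% of all genes) and 0 lower (1.73% of all genes); with 5 TPM these were Cbln2 (log2 ratio 1.43) and the adhesion gene Cadm2 (1.46). In DKO against Isl1CKO Cbln2 (1.13) was the 1 higher gene (1.19%, against 0.87% of all genes) and Sncg (−1.22) the 1 lower (1.19%, against 1.23%), and DKO against Pou4f1KO gave 0 in either direction, where 0.645% of all genes were higher and 1.12% lower.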

How the data were processed

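RNA was measured in 4 libraries of dissected, frozen ganglia, made with a strand-specific kit per the labels' protocols. The submitters' processing notes name the build mm10 and StringTie, HISAT2, SAMtools, Trimmomatic and FastQC; their order, versions and settings, and the annotation, are not given in the sources used here. Per the file headers, the authors deposited TPM, which summed to 1000000 in each library. The deposited FPKM differed from TPM by a constant factor per library. Coverage, the mean read depth over a gene, was deposited unscaled.

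Rows sharing a symbol were summed. Genes with 1 TPM in at least 1 library were compared by the log2 ratio of (TPM + 1), computed with Python 3.11.15 and pandas 2.3.3 and tested on simulated data. The tables gave no counts, and no count test was run. The coverage per base at 1 TPM came from dividing coverage by FPKM, and 25 of the 52 compared members kept that ratio within 0.01. All 57 members were found in GENCODE M21.

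The members and lists were chosen with earlier results of these data known. Named members have 5 TPM in the higher library and are past 2-fold or among the 6 largest ratios in a direction of a comparison, or are among the 8 most abundant in control or the most abundant of their role; 30 genes met this. Others were chosen after their values were seen. The alternatives changed the pseudocount, filter, unit or scaling. On the same strand, the rows of 4 members overlap another gene's row. The values of 1 member, which counts in every total, are not reported here.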

Additional observations from a re-analysis of the deposited data

Results flagged for a closer look

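For 3 members the ratio tied to a label pointed in opposite directions in its pair of backgrounds, by at least 0.25 in each; the difference was not tested, since each value rests on 1 library a side. Rims4 had a log2 ratio of 0.58 in Isl1CKO against control and of −0.40 in DKO against Pou4f1KO, a departure from additivity of −0.98. Syt17, under 1.5 TPM in every library, had a log2 ratio of 0.37 in Pou4f1KO against control and of −0.44 in DKO against Isl1CKO, a departure of −0.80. Unc13a had a log2 ratio of 0.26 in Pou4f1KO against control and of −0.25 in DKO against Isl1CKO, a departure of −0.51. Rims4 and Unc13a, both listed here with the priming and clamp genes, had their lowest level in control, and Syt17 was lowest in DKO.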

How the results depend on the processing

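No paired analysis was possible because each genotype has 1 library, and for the same reason no replicate could be left out. Of 1380 values for 34 named genes under 7 alternatives, 1332 counted as the same, and no called ratio changed sign. The 1332 kept their side of 2-fold. Those of the 1332 short of 2-fold also stayed within 0.25, a limit not asked of called ratios. The other 48 include values that moved by at least 0.25 and stayed short of 2-fold. The 1332 include 204 values without a filter and 180 with a filter of 5 TPM, where a gene's own ratio cannot change. With a pseudocount of 0.1, members at least 2-fold higher numbered 3 (5.77%, against 1.46% of all genes) in Isl1CKO and 7 (13.5%, against 2.15%) in Pou4f1KO against control and 1 (1.92%, against 1.64%) in DKO against Pou4f1KO. Those lower numbered 2 (3.85%, against 4.02%) in DKO, 4 (7.69%, against 1.91%) in Isl1CKO and 1 (1.92%, against 3.12%) in Pou4f1KO against control, 2 (3.85%, against 2.57%) in DKO against Isl1CKO and 4 (7.69%, against 2.45%) in DKO against Pou4f1KO. With that pseudocount 8 members (15.4%, against 5.55%) had at least 0.5 in both Pou4f1 pairs. With FPKM, 1 member was higher in DKO against Isl1CKO, where Nrxn3 was at 0.93, and Nrxn3 was at 0.95 in DKO against control. For the Isl1 pairs the members at 0.5 or more numbered 2 with FPKM and 2 with a filter of 5 TPM. Rescaled without haemoglobin and ribosomal protein genes, 1 member was lower in DKO against Pou4f1KO. Under pan-neuronal scaling the members' median was −0.093 in Isl1CKO and 0.022 in Pou4f1KO against control and −0.054 in DKO against Pou4f1KO, and the median departure was 0.033; that scaling put the median of all genes at −0.14, −0.20 and 0.16 in those comparisons and their median departure at 0.29. The cause of these changes was not tested. Members under about 3 TPM depend most on the pseudocount, which the depth given does not settle.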
